A study of Homo sapiens with 16 samples.

Results

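The comparison set 3 libraries labelled DOHH2 against 6 libraries labelled SUDHL4 and OCILY7, 3 of each, out of 16 libraries in the series. Libraries were chosen by the line named in their labels and by condition, and no measured value entered the choice. All are pools of lymphoma cells carrying pLENTI-CRISPRv.2 with 4 guides per target from the Brunello library. In each line, 1 library came from control cells with guides against the AAVS site at baseline, 1 from cells with guides against CREBBP at baseline, and 1 from CREBBP-targeted cells given IL4 for 4 h, at 10 ng/ml. The labels write these genotypes as AAVS -/- and CREBBP -/-, although the cells are pools. Control cells given IL4 were left out of the comparison, as were all libraries labelled SUDHL10. Per the growth notes, DoHH2 and SU-DHL4 were kept in RPMI-1640 and OCILY7 in IMDM, and treatment was done in RPMI. For the lines named OCILY7 and SUDHL10, titles and cell line entries contradict each other, and the cell line entry was followed here. Each line thus has 3 cultures under 3 conditions and no repeat of a condition, so p-values measure the spread between these cultures and not the spread between lines of a kind.

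Germinal centre B cells are the cells that mutate and select their antibody genes, and many lymphomas arise from them. A lymphoma line grows from a single clone, so every cell of a line carries the same rearranged heavy and light chain genes, and the light chain is either kappa or lambda. CREBBP encodes an acetyltransferase that acts on histones at enhancers, including those of the MHC class II genes and of genes induced by IL4.

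The 9 libraries held 39668652 to 61981976 estimated counts, with 52381059, 55042473 and 61981976 in DOHH2. Levels are given as CPM, counts scaled to the library total. CREBBP, the targeted gene, was at 246 CPM in DOHH2 control cells and at 270 and 218 CPM in its CREBBP-targeted cultures. In the 6 other libraries CREBBP lay between 187 and 360 CPM, and its fold change between lines was not called (log2 -0.31 ± 0.17 SE, adjusted p = 0.17). Read counts over the whole gene do not show whether small edits are present. B-cell markers fixed for this report summed to between 5672 and 6926 CPM in DOHH2 and between 6092 and 9510 CPM in the other lines. T-cell markers summed to 102 to 109 CPM in DOHH2 and 123 to 159 CPM elsewhere. Of 15 T-cell markers, 10 stayed under 1 CPM in every DOHH2 library and LCK, which ranged from 86.6 to 142 CPM over the 9 libraries, led the list. Fibroblast markers summed to 24.7 to 35.4 CPM in DOHH2 and 13.4 to 23 CPM elsewhere, led by DCN at 11 to 33.9 CPM. Of 3 tested, 1 was higher and 2 lower, and 2 of 8 were at 0 in every DOHH2 library. Endothelial markers, nearly all PECAM1, summed to 10.5 to 23.7 and 7.66 to 34.2 CPM, and epithelial markers to at most 0.316 CPM. The part of these genes in the results was not tested.

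The labels name 3 lines, while the values set them close together. Kappa constant region (IGKC) lay between 454 and 1058 CPM in all 9 libraries. In 9 of 9 the leading kappa variable segment was IGKV2-29, annotated as a pseudogene, at 2.51 to 9.85 CPM, and the leading heavy chain constant gene was IGHG4. IGHG4 also led in the 4 SUDHL10 libraries, at 512 to 1309 CPM, so it does not mark the 9. The IGHG genes are closely similar in sequence, so reads may be split among them. No gene stood at 10 CPM or more in all 3 DOHH2 libraries and under 0.5 CPM in all 6 others, and none showed the opposite pattern. The same search between the 9 libraries and the 3 SUDHL10 libraries of these conditions found 44 genes at 10 CPM or more in SUDHL10 and under 0.5 CPM in the 9, and 39 with the reverse. No pair of libraries agreed within sampling noise. The chi-square per degree of freedom was 35.9 to 317 between libraries of 1 line, 101 to 400 between SUDHL4 and OCILY7, and 145 to 535 between DOHH2 and the other lines. These values do not settle whether the 9 libraries come from 3 lines, and the line names below are those of the labels.

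DOHH2 differed from the other lines in a large share of the transcriptome, mostly by moderate amounts. Of 21488 genes tested, 8003 (37.2%) passed an adjusted p of 0.05 in edgeR's quasi-likelihood test with condition as a block. DOHH2 was higher for 4133 genes (19.2%) and lower for 3870 (18%). Over the called genes the median absolute log2 fold change was 1.07, with quartiles of 0.73 and 1.74. A fold above 2 was reached by 4367 of them, 2683 higher and 1684 lower. In CPM, all 3 DOHH2 values lay above all 6 others for 5483 genes (25.5%) and below them for 1860 (8.66%). CPM is scaled to library totals only, while the test also used TMM scaling factors. These factors were 1.08 to 1.19 in DOHH2 and 0.82 to 0.99 in the other lines. DOHH2 levels therefore stand higher in CPM than in the test, here and for the genes below. The shares of genes without overlap are tilted the same way. The median log2 fold change of all genes tested was 0.12, and a change is best read against it. With upper-quartile scaling the median of all genes tested was 0.26 and 62.5% of the called genes were higher in DOHH2, against 51.6% with TMM scaling.

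The lines used as the reference hardly separated from each other. DOHH2 against SUDHL4 gave 3074 higher (14.3%) and 3108 lower (14.5%) genes, and DOHH2 against OCILY7 gave 2560 (11.9%) and 2998 (14%). SUDHL4 against OCILY7 gave 0 calls in edgeR, while DESeq2 called 35. In edgeR 720 of 21488 genes had an unadjusted p under 0.05, fewer than the share of 0.05 that chance alone gives. Among 10346 genes whose group means summed to more than 10 CPM, the median absolute log2 difference was 0.52 for DOHH2 against SUDHL4, 0.51 for DOHH2 against OCILY7 and 0.13 for SUDHL4 against OCILY7. A gene was called against both lines in the same direction in 4616 cases (21.5%), 2113 higher (9.83%) and 2503 lower (11.6%). These contrasts share the DOHH2 libraries. Without the CREBBP baseline library of DOHH2 the main count was 4611, and without its CREBBP IL4 library it was 5032.

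**Figure D1:**
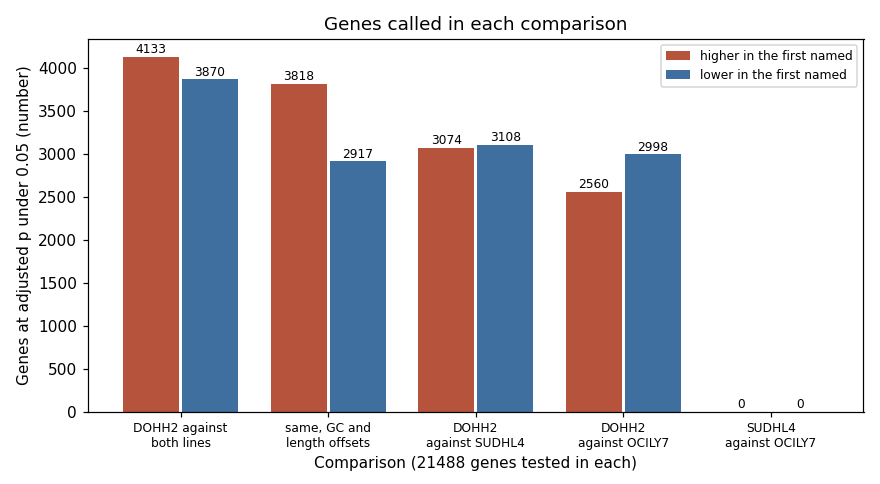
Number of genes (y axis) at adjusted p under 0.05 in each comparison (x axis), with bars for genes higher and lower in the line named first. DOHH2 against both lines gave 4133 and 3870 genes, and SUDHL4 against OCILY7 gave 0 in either direction.

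Base composition moved with the comparison. In the fifth of genes with the lowest GC share in their longest transcript, 42.5% were higher in DOHH2 and 2.54% lower, with a median log2 fold change of 0.68. In the fifth with the highest GC share, 5.19% were higher and 36.7% lower, with a median of -0.48. Each library's median level of low-GC genes relative to high-GC genes was taken on a log2 scale centred over the libraries. It was 0.47, 0.61 and 0.62 in DOHH2 and between -0.90 and -0.06 in the other lines, so the compared groups did not overlap. In the 7 libraries left out it ran from -0.19 in SUDHL4 AAVS IL4 to 0.81 in SUDHL10 CREBBP IL4. The AAVS IL4 libraries of OCILY7 and DOHH2 were both at 0.35. Long noncoding RNAs took 3.12% to 4.18% of all counts in DOHH2 against 1.83% to 2.95% in the compared libraries of the other lines. In the AAVS IL4 libraries they took 4.16% in DOHH2, 3.52% in SUDHL4 and 5.28% in OCILY7. Of 5054 long noncoding RNAs tested, 1276 were higher and 196 lower. Of 13404 protein-coding genes, 2214 were higher (16.5%) and 3402 lower (25.4%), with a median of -0.10. Because of this, many results below are also given from a second fit in which every library carried an offset for GC share, exon length and gene span, an alternative added after the data were seen. That fit called 3818 genes higher (17.8%) and 2917 lower (13.6%), and 4817 genes were called in the same direction by both fits, 2752 higher and 2065 lower. In the second fit the share higher was 19.4% at the lowest and 16.9% at the highest GC, and the share lower 15.1% and 13.4%. The split by gene type remained in the second fit, where 25.3% of long noncoding RNAs were higher and 3.03% lower (25.2% and 3.88% without offsets), and 13.9% of protein-coding genes were higher and 19.4% lower. Whether the GC trend arose in the cells or in the libraries was not tested.

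**Figure D2:**
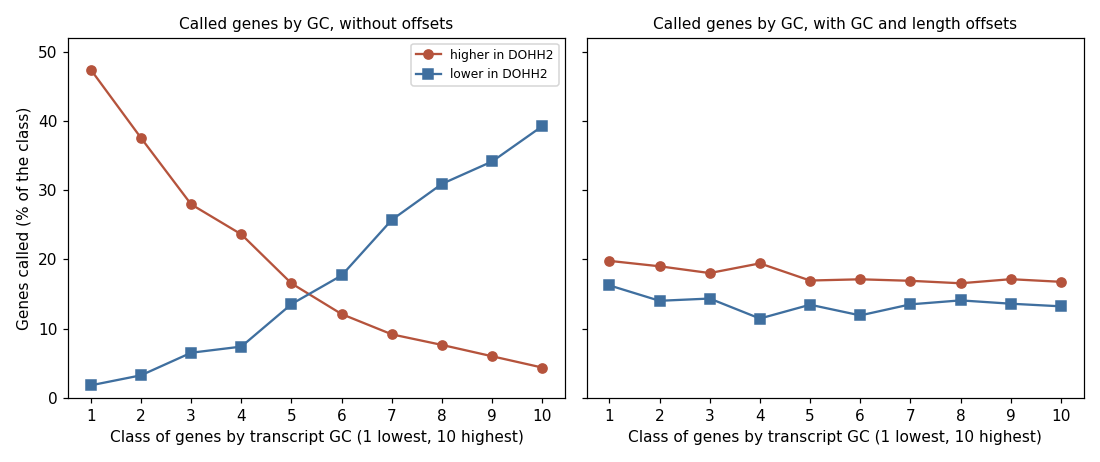
Share of genes called higher or lower in DOHH2 (y axis, % of the class) over 10 equal classes of genes ranked by transcript GC share (x axis), without offsets on the left and with offsets on the right. Without offsets the share higher falls from 47.4% to 4.38% and the share lower rises from 1.82% to 39.2%, and with offsets both lines are nearly level.

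Among the genes with the largest increase in DOHH2, protein-coding genes were few and long noncoding RNAs and pseudogenes were many. PTPRK, a receptor-type tyrosine phosphatase at chr6:127968785-128520616 on the minus strand (GRCh38), led them. It was at 8.74, 3.56 and 3.61 CPM in the AAVS baseline, CREBBP baseline and CREBBP IL4 libraries of DOHH2. In SUDHL4 the same conditions gave 0.481, 0.227 and 0 CPM, and in OCILY7 0.410, 0.0863 and 0.139 CPM. The groups did not overlap, which the choice of these genes required. The log2 fold change was 4.53 ± 0.52 (adjusted p = 0.00014), or 4.05 with offsets.

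C3orf52, a membrane protein gene at chr3:112086335-112131004, was at 13.3, 59.1 and 15.1 CPM in DOHH2 and between 1.44 and 2.87 CPM in the other lines. Its CREBBP baseline value in DOHH2 stood well above the other pair. OMD, which encodes the extracellular matrix protein osteomodulin, was at 6.49, 12.3 and 8.57 CPM against 0.475 to 1.67 CPM. NAALAD2, a peptidase gene, was at 13.6, 1.89 and 6.18 CPM against 0.194 to 1.32 CPM, so its lowest DOHH2 value came near the range of the other lines. The log2 fold changes were 3.29 ± 0.41 for C3orf52, 3.15 ± 0.37 for OMD and 3.07 ± 0.44 for NAALAD2, with adjusted p of 0.0002, 0.00015 and 0.0004.

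LINC01355, an intergenic noncoding RNA, was at 19.8, 12.1 and 23 CPM in DOHH2 and between 0.924 and 1.90 CPM in the others (log2 3.44 ± 0.29, adjusted p = 3.4e-05). DGCR5, a noncoding RNA gene of the DiGeorge region on chromosome 22, was at 7.46, 3.20 and 6.36 CPM against 0.295 to 0.905 CPM. Its transcript is 55.3% GC, the highest share of the 12 genes with the largest increase, and its log2 fold change was 3.11 without and 3.45 with offsets. The other noncoding genes of that set were DIAPH1-AS1, SLC16A4-AS1, LINC01176 and MIR133A1HG, with log2 fold changes of 3.79, 3.70, 3.50 and 3.25. YES1P1 and PTPN2P1 are processed pseudogenes whose reads may belong to YES1 and PTPN2, at 3.25 and 3.11. Whether counting used read strand is not given in the sources used here, and without it the antisense genes cannot be told from their partners. All 12 genes stayed called with offsets, at log2 2.28 to 4.05.

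The most abundant genes that were higher were TTN, HNRNPA2B1 and NAP1L1. TTN, which encodes the giant muscle protein titin, was at 4006, 2343 and 2056 CPM in DOHH2, against 854, 541 and 389 CPM in SUDHL4 and 588, 337 and 562 CPM in OCILY7. Its log2 fold change of 2.09 ± 0.18 (adjusted p = 3.4e-05) was 0.77 with offsets. HNRNPA2B1, an RNA-binding splicing factor, had a log2 fold change of 0.54 (adjusted p = 0.017) that was not called with offsets (0.18, adjusted p = 0.37). NAP1L1, a histone chaperone, went from 0.51 (adjusted p = 0.018) to -0.19 (adjusted p = 0.36). Both calls were also lost without single libraries, at log2 0.44 to 0.48 for HNRNPA2B1 and 0.40 to 0.58 for NAP1L1.

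**Figure D3:**
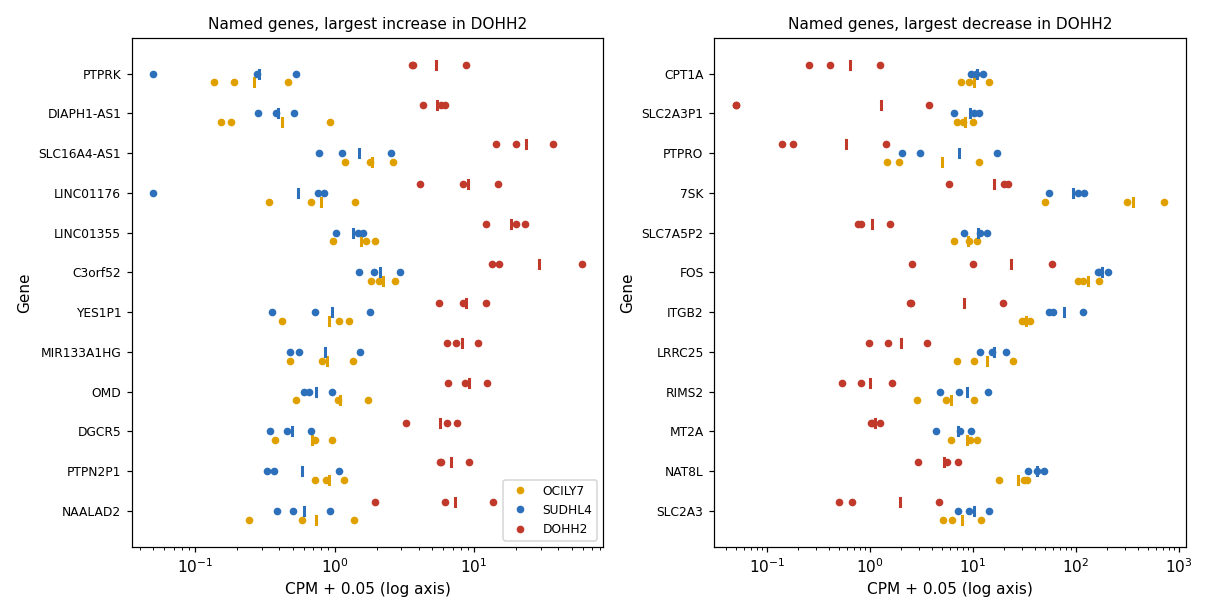
CPM plus 0.05 (x axis, log scale) of the 12 genes with the largest increase and the 12 with the largest decrease in DOHH2 (y axis). Each point is a library coloured by line and each tick a mean over 3 libraries. The genes were chosen so that the 3 DOHH2 points lie to 1 side of the 6 others.

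The genes with the largest decrease were mostly protein-coding. CPT1A, the enzyme that commits long-chain fatty acids to oxidation in mitochondria, lies at chr11:68754620-68844410 on the minus strand. It was at 1.20, 0.363 and 0.210 CPM in DOHH2, against 12.4, 10.6 and 9.51 CPM in SUDHL4 and 14.2, 7.66 and 9.09 CPM in OCILY7. The log2 fold change was -4.62 ± 0.36 (adjusted p = 3.3e-05), and -4.33 with offsets. PTPRO, another receptor-type tyrosine phosphatase, was at 1.39, 0.0908 and 0.129 CPM against 1.42 to 17 CPM. In every line PTPRO was highest in the control library, and the DOHH2 control value lay just under the lowest value elsewhere (log2 -4.04 ± 0.37, adjusted p = 4.5e-05).

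FOS, a subunit of the AP-1 transcription factor that is induced within minutes of stimulation, was at 58.0, 2.53 and 9.87 CPM in DOHH2. SUDHL4 gave 204, 167 and 165 CPM and OCILY7 106, 168 and 116 CPM (log2 -3.60 ± 0.70, adjusted p = 0.0021). On a log scale the DOHH2 values spread more widely than those of the other lines. In CPM the SD of FOS was 30.2 in DOHH2, 22.1 in SUDHL4 and 33.4 in OCILY7. ITGB2, the beta chain of the leukocyte integrins, was at 19.7, 2.43 and 2.40 CPM in DOHH2, at 116, 59.8 and 55.1 CPM in SUDHL4 and at 35.8, 31.7 and 30.1 CPM in OCILY7 (log2 -3.55 ± 0.53, adjusted p = 0.00049). Its control value was the highest in each line. NAT8L, which makes N-acetylaspartate, was at 2.86, 5.54 and 7.13 CPM against 17.8 to 49.3 CPM (log2 -3.05 ± 0.28, adjusted p = 4.3e-05).

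SLC2A3, a glucose transporter, was at 4.68, 0.454 and 0.629 CPM in DOHH2 and at 5.05 to 14.1 CPM in the others (log2 -3.01 ± 0.42, adjusted p = 0.00034). SLC2A3P1 (log2 -4.32) is a processed pseudogene of it and SLC7A5P2 (-3.60) one of the amino acid transporter SLC7A5, so reads may have been shared with the parent genes. SLC2A3P1 was not called without the CREBBP baseline or the CREBBP IL4 library of DOHH2 (log2 -3.16, adjusted p = 0.056). LRRC25 and RIMS2, a synaptic release gene, had log2 fold changes of -3.28 and -3.25. The entry named 7SK covers the same stretch of chromosome 6 as RN7SK, the noncoding RNA that holds back the elongation factor P-TEFb, so the split of reads between the records is uncertain. The 7SK entry was at -3.84 and RN7SK at -0.93 (adjusted p = 0.047), and with offsets RN7SK was at 0.16 (adjusted p = 0.51).

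MT2A, a metallothionein that binds zinc and copper ions, was at 1.20, 0.981 and 1.0 CPM in DOHH2, at 9.5, 4.34 and 7.38 CPM in SUDHL4 and at 10.8, 9.24 and 6.15 CPM in OCILY7 (log2 -3.14 ± 0.33, adjusted p = 9.6e-05, and -2.80 with offsets). MT1X, named after its values were seen, had a log2 fold change of -2.99. Metallothionein genes are switched on by MTF1 through metal response elements, and the MT2A promoter is shown for that reason. The 250 bases before its start, chr16:56608334-56608583 on the plus strand (RefSeq, GRCh38.p14), are printed 5′ to 3′ with letters matching TGCACNC or TGCGCNC on either strand in capitals.
MT2A: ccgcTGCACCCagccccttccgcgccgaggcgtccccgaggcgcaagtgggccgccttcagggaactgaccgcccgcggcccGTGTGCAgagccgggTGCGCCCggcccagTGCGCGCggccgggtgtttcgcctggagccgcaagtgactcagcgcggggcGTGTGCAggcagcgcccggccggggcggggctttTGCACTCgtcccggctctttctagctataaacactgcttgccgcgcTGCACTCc
The stretch holds 7 matches. Of 35116 RefSeq promoters of 300 bases, 29.6% held at least 1 match and 0.0199% held 8 or more, the MT2A count over its full 300 bases. Of the 30 named genes, 18 had an entry in this promoter table.

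The most abundant genes that were lower were ACTB, ACTG1 and CD74. The cytoskeletal actin ACTB was at 5668, 7681 and 7691 CPM in DOHH2 and between 11065 and 19004 CPM in the other lines (log2 -1.26 ± 0.23, adjusted p = 0.0013). With offsets it was at -0.75 (adjusted p = 0.017). ACTG1, the second cytoskeletal actin, was at -1.15, and at -0.70 with offsets.

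Lists of genes used in this report mostly had medians below those of all genes. The median of 27 of the 29 lists lay below the 0.12 of all genes tested, while 20 of 29 lay below the -0.10 of protein-coding genes, which make up most lists, and 21 of 29 below their -0.04 with offsets. Some lists share members. Counts of members lower are to be read against 18% of all genes and 25.4% of protein-coding genes, or 13.6% and 19.4% with offsets. The unfolded protein response and integrated stress response genes, which cells use to slow translation and restore protein folding and amino acid supply, had the lowest median. Of 24 members, 16 were lower and 1 higher, with a median log2 fold change of -0.99 against 0.12 over all genes. With offsets 14 were lower and 1 higher, with a median of -0.75 against 0.15. Immunoglobulin constant and immediate early genes had medians nearly as low without offsets, at -0.98 each. With offsets those were -0.39 and -0.58.

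**Figure D4:**
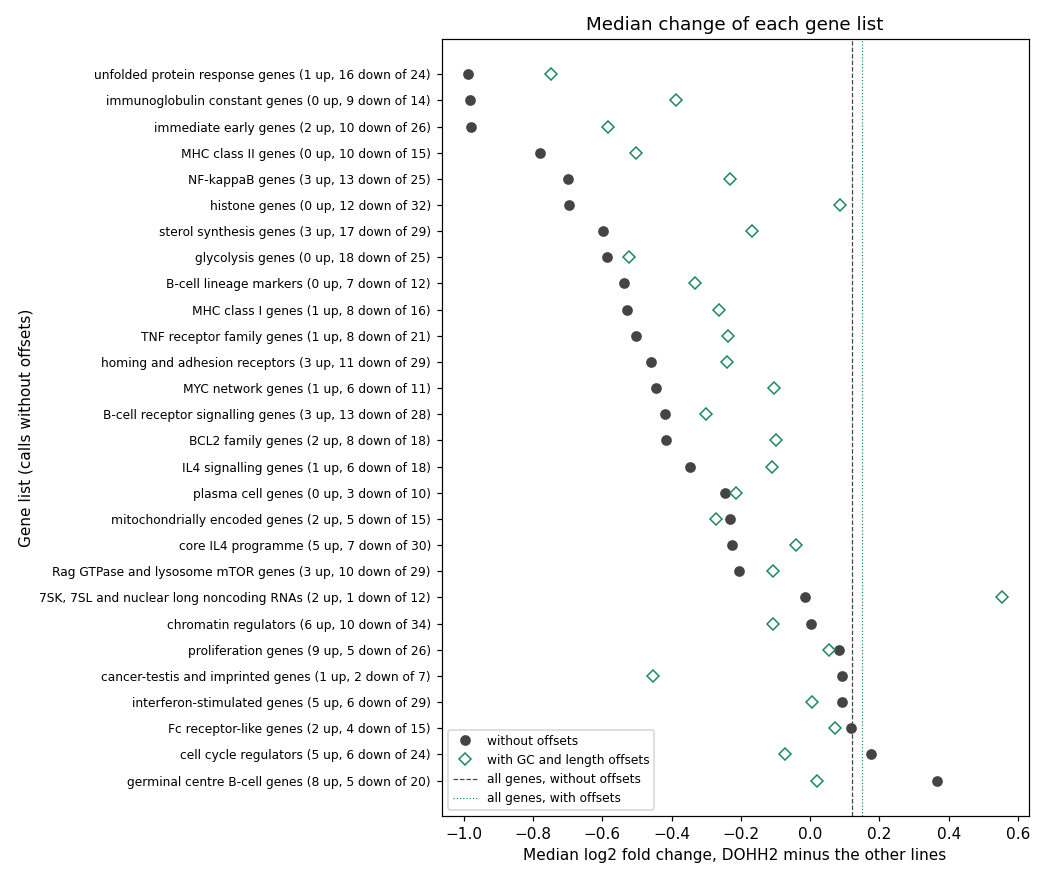
Median log2 fold change (x axis, DOHH2 minus the other lines) of the gene lists shown (y axis, with their calls), without offsets as filled circles and with offsets as open diamonds. Dashed and dotted lines mark the medians of all genes, 0.12 and 0.15. Without offsets the unfolded protein response list lies farthest left at -0.99, with immunoglobulin constant and immediate early genes next at -0.98 each.

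The unfolded protein response members that fell included transcription factors and target genes. DDIT3, the stress transcription factor CHOP, was at 54.8, 15.5 and 27.7 CPM in DOHH2, at 182, 120 and 143 CPM in SUDHL4 and at 221, 80.8 and 102 CPM in OCILY7. The groups did not overlap, and the log2 fold change was -2.48 ± 0.21 (adjusted p = 3.5e-05). ATF4, which drives amino acid synthesis genes, was at 405, 299 and 386 CPM against 542 to 695 CPM (log2 -1.05 ± 0.16, adjusted p = 0.0006). Its target ASNS, asparagine synthetase, was at 53.9, 73.7 and 77.7 CPM in DOHH2. In the other lines ASNS was at 320 and 303 CPM in the controls and at 108 to 145 CPM in the CREBBP-targeted cultures (log2 -1.41 ± 0.32, adjusted p = 0.0049).

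TRIB3, a pseudokinase that restrains ATF4 signalling, was at 20, 20.5 and 21.8 CPM against 47.9 to 93.1 CPM (log2 -1.94 ± 0.24, adjusted p = 0.00019). CHAC1, which degrades glutathione, and ATF3 had log2 fold changes of -2.24 and -2.17. The chaperone HSPA5 was at 208, 298 and 354 CPM against 319 to 681 CPM, so its groups overlapped, with a log2 fold change of -0.95 (adjusted p = 0.0084). EIF2AK3, the kinase PERK that senses stress in the endoplasmic reticulum, was the member that rose, at 294, 443 and 259 CPM against 71.3 to 151 CPM (log2 1.35 ± 0.23, adjusted p = 0.00094). PPP1R15A, ERN1, ATF6, HSP90B1, HERPUD1, DNAJC3 and VLDLR were not called.

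ATF4 acts through amino acid response elements, so promoters were searched for the letters TGATGNAA on either strand. The letters were found in 4 of the 24 members and in 4.46% of all genes in the table. Of the 4, ASNS, CHAC1 and ATF3 were lower in DOHH2 and HERPUD1 was not called (log2 -0.26), against 16 of 24 lower in the whole list. The 80 bases around each match are printed, matches in capitals, to show the letters in their promoters. They lie at chr7:97872433-97872512 on the minus strand for ASNS, chr15:40953226-40953305 on the plus strand for CHAC1, chr1:212565180-212565259 on the plus strand for ATF3 and chr16:56931930-56932009 on the plus strand for HERPUD1 (RefSeq, GRCh38.p14).
ASNS: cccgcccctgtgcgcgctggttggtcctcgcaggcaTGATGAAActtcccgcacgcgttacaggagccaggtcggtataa
CHAC1: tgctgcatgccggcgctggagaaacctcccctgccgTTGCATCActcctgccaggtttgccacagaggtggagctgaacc
ATF3: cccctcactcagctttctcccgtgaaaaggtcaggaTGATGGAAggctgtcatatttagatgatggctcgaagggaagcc
HERPUD1: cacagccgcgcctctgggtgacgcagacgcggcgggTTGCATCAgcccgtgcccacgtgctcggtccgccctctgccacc
CHAC1 and HERPUD1 carry the letters on the opposite strand. A match describes the letters only.

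Glycolysis genes, which turn glucose to lactate and feed growth, showed the same direction. Of 25 members 18 were lower and 0 higher, with a median of -0.59, and with offsets 15 were lower and 0 higher, with a median of -0.52. HK2, the hexokinase that traps glucose in the cell, was at 218, 192 and 189 CPM in DOHH2, at 784, 785 and 715 CPM in SUDHL4 and at 715, 494 and 551 CPM in OCILY7. Each DOHH2 value was below all 6 others (log2 -2.0 ± 0.18, adjusted p = 4.1e-05). The glucose transporter SLC2A1 was at 73.7, 96.8 and 82.9 CPM against 170 to 234 CPM (log2 -1.49 ± 0.16, adjusted p = 9.6e-05). PFKFB4, which sets the level of an activator of phosphofructokinase, was at 75.5, 15.4 and 18.4 CPM against 93.1 to 173 CPM (log2 -2.40 ± 0.38, adjusted p = 0.00072).

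Several other members of the list moved less. PKM and ALDOA had log2 fold changes of -0.82 and -0.79 and remained lower with offsets. GAPDH, TPI1, ENO1, PGAM1 and PFKL, at -0.46 to -0.55, were called without offsets and not with them. PFKM, ENO2 and PDK1 were not called, at log2 fold changes of 0.01, -0.03 and -0.05.

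MHC class II genes, which present peptides to helper T cells and are regulated by CIITA, were lower for 10 of 15 members and higher for 0, with a median of -0.78. With offsets 9 were lower and the median was -0.50, and 8 were lower in both fits. HLA-DRA was at 821, 620 and 615 CPM in DOHH2, at 1210, 1043 and 1066 CPM in SUDHL4 and at 1197, 1099 and 929 CPM in OCILY7 (log2 -0.94 ± 0.16, adjusted p = 0.00086). CD74, the invariant chain, was at 1737, 1612 and 1742 CPM against 2315 to 3652 CPM (log2 -1.11 ± 0.18, adjusted p = 0.00085). CIITA was not called (log2 -0.15), nor were HLA-DMB, HLA-DOB, HLA-DPB1 and the protease CTSS. Reads of HLA-DRB1 and HLA-DRB5 may be shared. In each of the lines, and not only in DOHH2, the HLA-DRA value of the control library was above both CREBBP-targeted ones.

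**Figure D5:**
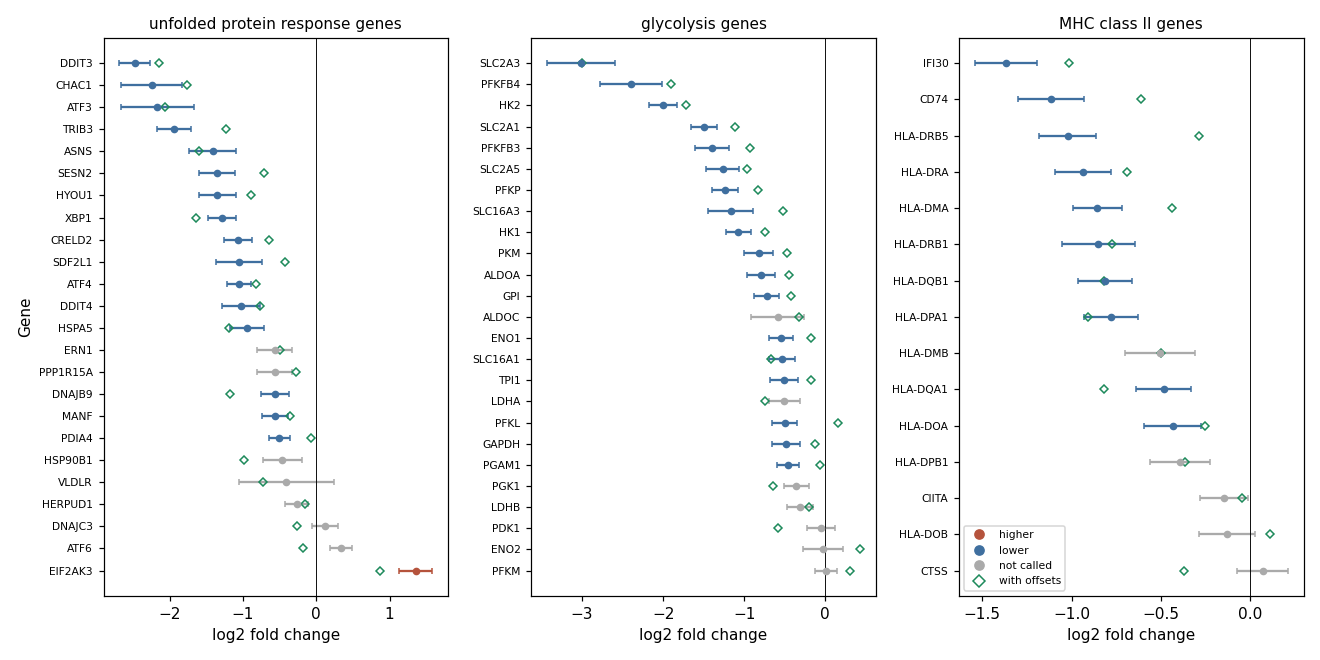
log2 fold change (x axis) of each tested member (y axis) of the unfolded protein response, glycolysis and MHC class II lists, as circles with SE bars coloured by call, and with offsets as open diamonds. EIF2AK3 at 1.35 is the only called member right of 0.

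Of 16 MHC class I genes, 8 were lower and 1 higher, and 4 and 1 with offsets. For this list and those that follow, 19.2% of all genes were higher and 18% lower, or 17.8% and 13.6% with offsets. Among protein-coding genes 16.5% were higher and 25.4% lower, or 13.9% and 19.4% with offsets. HLA-B and HLA-C had log2 fold changes of -1.51 and -1.93 and remained lower with offsets, while ERAP2, a peptidase that trims peptides for class I, was higher at 1.01. Among the immediate early genes 10 of 26 were lower and 2 higher, with a median of -0.98, and 8 and 2 with offsets. JUND was at 66.9, 33.9 and 48.2 CPM against 124 to 221 CPM (log2 -1.99 ± 0.26, adjusted p = 0.00027), and the phosphatase DUSP1 at 44, 8.32 and 16.8 CPM against 45.6 to 90.4 CPM (log2 -1.95 ± 0.44, adjusted p = 0.0049). EGR1, at 78.9, 1.14 and 14.4 CPM against 65.2 to 210 CPM, overlapped through the control library of DOHH2 (log2 -2.74 ± 0.75, adjusted p = 0.014). IER5 rose, at 86.7, 57.9 and 72.2 CPM against 23.3 to 34.7 CPM (log2 1.06 ± 0.17, adjusted p = 0.00072).

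B-lineage genes were expressed in all DOHH2 libraries, some of them at lower levels than in the other lines. Of 12 lineage markers 7 were lower and 0 higher, and 5 and 0 with offsets. The receptor chains CD79A and CD79B had log2 fold changes of -1.12 and -1.28, while MS4A1 (CD20) and CD22 were not called, at 0.52 and -0.37. Immunoglobulin constant genes were lower for 9 of 14 and higher for 0, and 6 and 1 with offsets. IGKC was at 454, 518 and 554 CPM against 703 to 1058 CPM (log2 -1.08 ± 0.16, adjusted p = 0.00044), and at -0.47 with offsets (adjusted p = 0.029). In bulk RNA, fewer cells of a type and less RNA per cell cannot be told apart.

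Of 28 B-cell receptor signalling genes 13 were lower and 3 higher, and 8 and 1 with offsets. PTPN6, the phosphatase SHP-1 that dampens receptor signals, fell most, at 27.5, 4.78 and 6.84 CPM against 30.5 to 99.2 CPM (log2 -2.62 ± 0.25, adjusted p = 5.7e-05). VAV1, an exchange factor that passes the signal on, had a log2 fold change of -1.06 and also fell with offsets. MALT1, RASGRP3 and DAPP1 were higher at 0.66, 0.76 and 0.43, and none of these was called with offsets.

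Germinal centre genes moved in both directions, with 8 of 20 higher and 5 lower, and 6 and 3 with offsets. The list's median of 0.37 was 0.02 with offsets, and without the CREBBP baseline or CREBBP IL4 library of DOHH2, 5 and 4 were higher. MYBL1, a transcription factor of dividing germinal centre cells, was at 148, 131 and 152 CPM against 29.2 to 56.7 CPM (log2 1.65 ± 0.14, adjusted p = 3.8e-05). HDAC9, a histone deacetylase, was at 111, 53.9 and 52.8 CPM against 8.48 to 33.6 CPM (log2 1.76 ± 0.18, adjusted p = 7.5e-05). LMO2, SPIB and S1PR2, a receptor that holds B cells in the germinal centre, were lower at -1.67, -1.03 and -1.22. BCL6, the master repressor of that state, had overlapping groups and a log2 fold change of -0.39 (adjusted p = 0.049), which was -0.16 with offsets (adjusted p = 0.34) and was lost under 16 alternatives.

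Regulators of survival and growth differed by gene. BCL2, which blocks apoptosis, was at 592, 681 and 418 CPM in DOHH2 against 211 to 375 CPM (log2 0.64 ± 0.17, adjusted p = 0.011), and MCL1 was higher at 0.78. Without the CREBBP baseline library of DOHH2, BCL2 was at 0.35 and not called (adjusted p = 0.20). Both remained called with offsets, at 0.45 and 0.72. The list of BCL2 family genes had 2 higher and 8 lower of 18, and 3 and 2 with offsets. MYC was at 122, 235 and 173 CPM, against 215, 373 and 365 CPM in SUDHL4 and 222, 408 and 363 CPM in OCILY7. In each condition DOHH2 had the lowest MYC value, although the CREBBP baseline value of DOHH2 exceeded the control values of the other lines (log2 -1.14 ± 0.15, adjusted p = 0.00028).

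Proliferation genes had 9 of 26 higher and 5 lower, and 6 and 2 with offsets. Without the CREBBP baseline or CREBBP IL4 library of DOHH2, 2 and 3 were higher, and without the CREBBP IL4 library of SUDHL4 or the CREBBP baseline library of OCILY7, 5 were. CDK1, CENPE and TOP2A were higher at 1.39, 1.34 and 0.89, and the replication helicase subunits MCM7 and MCM5 were lower at -1.22 and -1.17. Of 34 chromatin regulators 6 were higher (17.6%) and 10 lower (29.4%), near the shares over protein-coding genes, and 3 and 5 with offsets. EZH2, the methyltransferase of the Polycomb complex, was higher at 0.96, and 0.59 with offsets. EP300, the paralog of CREBBP, was at -0.02 (adjusted p = 0.93).

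In several further lists fewer members were called lower with offsets. Sterol synthesis genes had 17 of 29 lower and 3 higher, and 8 and 0 with offsets, where the median was -0.17. Without the CREBBP baseline or CREBBP IL4 library of DOHH2, 10 and 8 were lower. Histone genes had 12 of 32 lower and 0 higher with a median of -0.70, and with offsets 6 lower and 3 higher with a median of 0.08. Without each of those DOHH2 libraries 3 histone genes were lower, and without the CREBBP baseline library of SUDHL4 19 were. NF-kappaB genes had 13 of 25 lower and 3 higher, and 7 and 3 with offsets. Homing and adhesion receptors had 11 of 29 lower and 3 higher, and 8 and 1 with offsets, with the chemokine receptor CXCR4 at -1.20 and -1.11. TNF receptor family genes had 8 of 21 lower and 1 higher, and 4 and 2 with offsets, and without those DOHH2 libraries 4 and 3 were lower. Genes of the MYC network had 6 of 11 lower and 1 higher, and 3 and 3 with offsets, and without those libraries 3 and 2 were lower. The nuclear noncoding RNA NEAT1, which scaffolds paraspeckles, was higher at 2.26, and 1.87 with offsets.

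In each remaining list at most 10 members were called in either direction. Interferon-stimulated genes had 5 of 29 higher and 6 lower, near the shares over all genes, and 3 and 6 with offsets. Those of the core IL4 programme had 5 of 30 and 7, and 4 and 3 with offsets, where SOCS1, an inhibitor of cytokine signalling, was lower at -1.21. Without the AAVS baseline library of DOHH2 4 of them were lower and 3 higher, and 2 interferon-stimulated genes were lower and 3 higher. IL4 signalling genes had 1 of 18 higher and 6 lower, and 1 and 5 with offsets. Rag GTPase and lysosome mTOR genes had 3 of 29 higher and 10 lower, and 2 and 7 with offsets. Cell cycle regulators had 5 of 24 higher and 6 lower, and 7 and 5 with offsets. Fc receptor-like genes had 2 of 15 higher and 4 lower, and 2 and 1 with offsets, and plasma cell genes 0 of 10 and 3, and 0 and 2. Mitochondrially encoded genes had 2 of 15 higher and 5 lower, and 1 and 4 with offsets, and cancer-testis and imprinted genes 1 of 7 and 2, and 0 and 1. The 7SK, 7SL and nuclear noncoding RNA list had 2 of 12 higher and 1 lower, and 6 and 1 with offsets, where its median went from -0.02 to 0.55.

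Calls were spread over the genome. Among genes above a summed group mean of 4 CPM, chromosome medians ran from -0.47 to 0.35 without offsets and from -0.11 to 0.08 with them. Over 228 windows of 10 Mb with at least 20 such genes, medians with offsets had quartiles of -0.11 and 0.07. The lowest was -0.28, and the highest was 0.52, on chromosome 7 between 60 and 70 Mb. A window on chromosome 19 between 20 and 30 Mb followed at 0.51. Of its 43 genes, 31 were higher and 4 lower without offsets, and 20 and 2 with them. Over all genes tested, 19.2% were higher and 18% lower, or 17.8% and 13.6% with offsets. The median GC share of the 43 genes was 38.4%. In the fifth of all genes with the lowest GC share, 42.5% were higher without offsets.

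The control cells given IL4, 1 library per line, took no part in the test. Of the 8003 called genes, 76.8% differed in the same direction there, on the log2(CPM + 1) scale and without replicates. The share was 81.0% for genes called higher, where 55.3% of all genes tested were positive, and 72.4% for genes called lower, where 44.5% were negative. Of the named genes, 9 of 12 with the largest increase and 10 of 12 with the largest decrease kept their direction. PTPRK did not, at 5.89 CPM in DOHH2 against 3.82 and 9.16 CPM in SUDHL4 and OCILY7, and CPT1A, at 13 against 15 and 17.8 CPM, kept it by little. MT2A was at 1.78 against 9.75 and 9.47 CPM and DDIT3 at 36.0 against 153 and 114 CPM. These libraries also differed in antibody transcripts: IGHM was at 138 CPM in DOHH2, 951 CPM in SUDHL4 and 1711 CPM in OCILY7, against 0 to 0.070 CPM in the 9 libraries of the comparison. Summed heavy chain variable segments reached 18.1 CPM in DOHH2, 643 CPM in SUDHL4 and 1301 CPM in OCILY7, against 3.21 to 7.82 CPM in the 9. What these transcripts contribute to the directions was not tested.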

How the data were processed

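RNA-seq was carried out by the authors on RNA of cell pools with a 50 ng input, sequenced as 151 bp read pairs. Per the labels, their processing notes name bcl2fastq, cutadapt 2.3, FastQC 0.11.8, MultiQC 1.7, STAR 2.7.8a, RSEM 1.3.3 and GRCh38. The authors deposited estimated counts per gene from RSEM as whole numbers for 62714 Ensembl genes per library, without normalization. The methods for primary B cells, which the lines are said to follow, name a stranded Takara SMART kit and averaged counts of technical replicates. The strand setting of counting, and whether averaging reached these files, are not given in the sources used here.

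From these counts, CPM was computed on library totals. edgeR 4.0.16 (R 4.3.3) was run with filterByExpr, TMM factors and the quasi-likelihood test, with condition as a block for the main comparison and 1 term per line for contrasts between lines, and Benjamini-Hochberg adjustment over all 21488 genes. SE is the absolute log2 fold change over the square root of F. Alternatives used DESeq2 1.42.0, limma 3.58.1, other scalings, filters and subsets of libraries. Offsets for GC share of the longest transcript, exon length and gene span were smoothed per library with splines of 5 degrees of freedom. Of the genes tested, 21473 had a GC value. Positions and gene types are from GENCODE 44, in which 62639 of the genes were found.

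On simulated counts for the main comparison over 21488 genes with 200 changed, edgeR called 41% of 2-fold and 87% of 4-fold changes and 6 unchanged genes. The changed genes were drawn only from those above a floor of mean CPM, so these shares do not cover the genes below it. With a simulated GC trend, 3501 unchanged genes were called without offsets and 13 with them. That trend was a straight line, the same in every DOHH2 library, which the offsets are built to take out. These counts therefore do not show how the offsets act on the trend in the real libraries.

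Named genes had a symbol, an adjusted p under 0.05, all 3 DOHH2 CPM values on 1 side of the 6 others and a mean of at least 5 CPM in the higher group. The 12 with the largest change in each direction and the 3 most abundant in each direction were taken, leaving out immunoglobulin and T-cell receptor segments, genes of chromosome Y, XIST and TSIX. Called members of the lists and 8 key genes could be named as well. The members and lists were chosen with earlier results of these data known. Files of the 4 SUDHL10 libraries and the 3 control libraries with IL4 were not tested. Some genes and lists are not reported here. Of 16 libraries 9 entered the fits.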

Additional observations from a re-analysis of the deposited data

Results flagged for a closer look

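ITGB2 in the AAVS baseline library of SUDHL4 stood apart from the rest of the 6 libraries of the other lines, at 116 CPM with the next at 59.8 CPM. Its gap to the next value was 0.655 of the whole range, above Dixon's limit of 0.625 for 6 samples. This was the only one of the 30 named genes so marked, and chance marks about 1 group in 20.

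HSPA1A, an inducible heat shock protein gene, was at 57.9 CPM in the DOHH2 control library with IL4, which entered no test, while the 9 compared libraries reached at most 11.3 CPM. The same libraries of SUDHL4 and OCILY7 held 251 and 543 CPM. HSPA1A and HSPA1B are near-identical, so how reads were split between them is uncertain.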

How the results depend on the processing

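The count of genes that differ between DOHH2 and the other lines stayed within 1.5 times of 8003 under each scaling, filter, model, tool and subset of libraries tried except these. It was 4367 with a fold over 2 required, and 4817 when a call in the same direction with GC and length offsets was required. Leaving out each library in turn gave 4611 to 8012 genes, with 4611 and 5032 without the CREBBP baseline and CREBBP IL4 libraries of DOHH2. Leaving out libraries gave 3092 to 7130 genes for DOHH2 against SUDHL4 (3217 and 3470 without those DOHH2 libraries, 3092 and 3784 without the same ones of SUDHL4) and 2574 to 6727 for DOHH2 against OCILY7 (2705 and 3129 without those DOHH2 libraries, 2993 and 2574 without the AAVS and CREBBP baseline libraries of OCILY7). It gave 2218 to 5161 for genes differing from both lines (2218 and 2536 without those DOHH2 libraries, 2690 without the CREBBP baseline library of SUDHL4, 2685 and 2439 without those OCILY7 libraries), 0 to 4 for SUDHL4 against OCILY7 and 23 to 28 lists under the median of all genes. SUDHL4 against OCILY7 gave 85 calls with no filter and 35 with DESeq2. The span of chromosome medians went from 0.82 to 0.19 with offsets. For the 30 named genes, 607 of 624 planned refits kept direction and call, and the 17 losses of a call fell on SLC2A3P1, HNRNPA2B1 and NAP1L1. Without single libraries, 12 to 17 unfolded protein response, 12 to 19 glycolysis 8 to 11 MHC class II, 8 to 18 sterol synthesis, 3 to 19 histone, 4 to 8 B-lineage, 4 to 8 BCL2 family, 3 to 9 TNF receptor family and 5 to 10 chromatin genes were called lower, and 2 to 9 proliferation and 4 to 8 germinal centre genes higher, each with fewest calls when a DOHH2 library was left out. Reversals without a call were seen for EP300 (0.11 with upper-quartile factors, 0.016 with at least 10 counts in every library, 0.13 with offsets, and -0.18 to 0.12 without single libraries) and NAP1L1 (-0.19 with offsets). The causes were not tested. Genes at a few CPM rest on few reads, and no paired analysis was possible because the labels number each library 1 and the condition already forms the block.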

Other observations

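Of 7 heat shock genes looked at after their values were seen, 3 were higher in DOHH2 and none was called lower. Over all genes tested 19.2% were higher and 18% lower. Because the 7 were picked with their values known, their count is no test against these shares. HSPA1B, the inducible HSP70, was at 1480, 1003 and 1422 CPM in DOHH2, at 146, 119 and 118 CPM in SUDHL4 and at 296, 103 and 81.5 CPM in OCILY7 (log2 3.02 ± 0.25, adjusted p = 3.4e-05). Its cochaperone DNAJB1 was at 610, 387 and 574 CPM against 80.9 to 230 CPM (log2 2.02 ± 0.24, adjusted p = 0.00016). Both kept their size with offsets, at 3.28 and 2.49. HSPA6 was also higher at 1.58, but its groups overlapped. It was at 20.9 to 51.1 CPM in DOHH2 and at 55.2 CPM in the AAVS baseline library of OCILY7. In the edgeR contrasts with single lines HSPA6 was not called, with adjusted p of 0.072 for SUDHL4 and 0.12 for OCILY7. HSPA8, HSPH1, HSP90AA1 and HSPA1A were not called at 0.21, 0.46, -0.35 and -0.78. In the control libraries with IL4 none of the 3 genes stood above both other lines in DOHH2. HSPA1B was at 307 CPM in DOHH2 against 393 and 659 CPM, and HSPA6 at 13 against 31.5 and 70 CPM. DNAJB1, at 218 CPM, lay between 183 CPM in SUDHL4 and 306 CPM in OCILY7.

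Zinc finger genes with a ZNF number, also grouped after the values were seen, were higher for 150 of 394 and lower for 64, with a median log2 fold change of 0.44, against 2214 higher and 3402 lower of 13404 protein-coding genes. With offsets 111 were higher and 35 lower. On chromosome 19, where many of them lie in clusters, 93 of 199 were higher and 20 lower, and with offsets 64 and 9. In the window between 20 and 30 Mb of that chromosome, 20 of 22 were higher and 0 lower, and 12 and 0 with offsets. That window was picked for its high median in this same comparison, so these counts are no test of it. The median GC share of those 22 was 37.0%.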
